A study of Mus musculus with 18 samples.

Results

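The genes described here are 10 transcription factors that act in fat: the nuclear receptors Pparg, Ppara, Ppard, Rxra, Rxrg and Nr1h3, the CCAAT/enhancer-binding proteins Cebpa and Cebpb, and the zinc-finger factors Sp1 and Sp3. They were chosen by symbol, all 10 were found among the 25124 genes of the count tables, and all 10 passed the filter on low counts in every fit. RNA was measured in inguinal white (iWAT), epididymal white (eWAT) and brown (BAT) adipose tissue of wild-type (WT) mice and of mice lacking caspase-6 in every tissue (C6KO), with 3 libraries in each of the 6 groups. All mice were males on a C57BL/6J background that came from crosses of heterozygous parents, and WT littermates served as the controls. All were fed a high-fat diet with 60% of calories from fat for 12 weeks, begun at 10 to 14 weeks of age, and were fasted for 10 h before tissue was taken, so no group without the diet stands beside them. The knockout covers every cell type, so a difference in a depot need not arise in its adipocytes. The study is concerned with PPARγ and SP1 proteins and with Pnpla2, which encodes the lipase ATGL, and the comparisons here ask whether the mRNA of these factors and their partners differed between genotypes and between depots.

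PPARγ, encoded by Pparg, is the nuclear receptor that drives adipocyte differentiation, and it binds DNA as a heterodimer with a retinoid X receptor such as those encoded by Rxra and Rxrg. PPARα and PPARδ, from Ppara and Ppard, are relatives best known for switching on fatty acid oxidation, with PPARα abundant in brown fat. C/EBPβ acts early in adipogenesis and C/EBPα later, when it and PPARγ maintain each other's expression. Nr1h3 encodes LXRα, an oxysterol receptor of cholesterol efflux and lipid synthesis, and SP1 and SP3 are broadly expressed factors that bind GC-rich boxes in promoters.

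The stretches of promoter shown here are those of Sp1, of Pnpla2 and of the PPARγ2 start of Pparg, since SP1 binds GC boxes, Pnpla2 is the lipase gene the study is concerned with, and the PPARγ2 start is the one that the counts of Pparg do not separate. Each runs 5′ to 3′ on the plus strand of GRCm38 (the mm10 assembly), ends at the base before the annotated RefSeq start and leaves out bases that GENCODE annotates as exon, which shortened that of Sp1 to 132 bases. They lie at chr15:102406184-102406315, chr7:141454938-141455187 and chr6:115421816-115422065. Capitals mark the GC box GGGCGG, the CCAAT box and the C/EBP core TTGCNNAA, searched on both strands, and the GC box and CCAAT box share 2 letters where they meet in Sp1.
Sp1: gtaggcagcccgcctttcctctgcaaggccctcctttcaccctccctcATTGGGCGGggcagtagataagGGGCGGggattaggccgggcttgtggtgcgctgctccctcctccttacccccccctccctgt
Pnpla2: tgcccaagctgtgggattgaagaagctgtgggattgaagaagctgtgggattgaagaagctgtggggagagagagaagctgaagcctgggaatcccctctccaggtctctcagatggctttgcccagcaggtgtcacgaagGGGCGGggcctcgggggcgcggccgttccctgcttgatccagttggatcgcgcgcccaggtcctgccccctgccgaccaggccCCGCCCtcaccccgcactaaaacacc
Pparg, PPARγ2 start: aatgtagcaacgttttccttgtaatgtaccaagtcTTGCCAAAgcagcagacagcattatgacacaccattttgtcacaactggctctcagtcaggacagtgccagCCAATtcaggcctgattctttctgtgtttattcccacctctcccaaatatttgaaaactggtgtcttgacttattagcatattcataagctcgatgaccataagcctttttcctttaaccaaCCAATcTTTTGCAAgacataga
The Sp1 stretch held 2 GC boxes and 1 CCAAT box, that of Pnpla2 held 2 GC boxes, and the PPARγ2 stretch held 2 CCAAT boxes, 2 C/EBP cores and 0 GC boxes.

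RefSeq promoter windows of 300 bases were found for 10 of the 10 genes, 16 windows in all because several genes have more than 1 start. A GC box was present in 9 of these 16 windows, from 7 genes, and in 35.7% of all 32851 windows of that length. Cebpb and 1 start of Sp3 had 5 GC boxes, and Sp1 and 1 start of Rxra had 4, a number reached by 5.49% of all windows. A CCAAT box was in 6 of the 16 windows and in 37.4% of all, and a C/EBP core in 3 (the PPARγ2 start, Sp1 and 1 start of Rxrg) and in 10.8% of all. The nuclear receptor half-site AGGTCA, repeated after 1 base (DR1) or after 4 bases (DR4), was in none of the windows of the 10 genes and in 0.0396% and 0.0152% of all windows. These matches describe letters in a short window and say nothing on binding.

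The deposited counts cover 1 transcript per gene. For Pparg this was the transcript of the PPARγ1 start, NM_001127330 at chr6:115360951-115490401, with 8 exons of which 6 are shared with the PPARγ2 transcript. The first exon of PPARγ2, 127 bases at chr6:115422066-115422192, was not counted, so the Pparg values are a sum over both forms, less that exon. For Ppara the tables of iWAT and BAT kept NM_011144 (7435 bases) and that of eWAT kept NM_001113418 (7197 bases), which differ in the first exon, so counts of Ppara in eWAT cover slightly other bases. Cebpa was counted as NM_001287523 in iWAT and eWAT and NM_001287514 in BAT, which have the same span and length. On the opposite strand, Tmem189 overlaps 312 of 1504 exon bases of Cebpb, Sp3os 109 of 4181 of Sp3 and Gm45091 51 of 2626 of Cebpa. The strandedness of the libraries is not given in the sources used here, and without it reads from such a pair cannot be told apart.

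Total counts were 16506034 to 19043523 reads per library for iWAT, 16717201 to 19139694 for eWAT and 7803108 to 12428683 for BAT, so values in BAT rest on fewer reads. Levels are given as CPM, the count of a gene relative to the library's total after TMM scaling over all 18 libraries. Casp6, the targeted gene, was at 20.3, 20.1 and 16.2 CPM in iWAT of WT against 5.55, 6.15 and 8.09 in C6KO, and the genotypes did not overlap in any depot. Its log2 fold change was -1.51 (SE 0.20, adjusted p = 0.075) for iWAT, -1.85 (SE 0.19, adjusted p = 0.013) for eWAT and -1.501 (SE 0.33, adjusted p = 0.067) for BAT, and reads on its exons remained in every C6KO library. The call in eWAT was lost without any single WT library, at adjusted p from 0.065 to 0.094, while the direction held in every alternative. Casp6 was called in iWAT without C6KO library 3 (-1.70, adjusted p = 0.0013). It was also called in BAT without WT library 2 (-1.65, adjusted p = 0.043). Of the brown adipocyte markers, Ucp1 and Cidea included, the 12 summed to 7140.1 to 17346 CPM in BAT of WT and to at most 217 CPM in iWAT and eWAT, and no adipocyte marker was at 0 in any library. WT library 2 of BAT stood apart: its 12 skeletal muscle markers summed to 44529.6 CPM against 98.4 and 2032 in the other WT libraries and 7117, 544 and 9197 in C6KO. Its 10 lymphocyte markers were high as well, at 109.7 CPM against 7.16 and 10.4 in the other WT libraries and 4.49 to 7.18 in C6KO. C6KO library 3 of iWAT also stood apart, with 20 macrophage markers at 3123 CPM against 1039 and 982 in the others of its group. Without it 1278 genes were called between genotypes in iWAT, against 4 with it, and values without either library are given where they bear on a result. The labels do not say that the libraries of a group came from separate animals, and p-values measure only the spread between these libraries, which may be technical.

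Cebpa was the most abundant of the 10 mRNAs per kilobase in every group except C6KO BAT, and Ppara changed place most between depots. In WT iWAT, Cebpa was at 385 ± 34.00 CPM per kilobase (SD, n = 3), above 99.4% of the genes measured. Pparg at 95.6 ± 6.89 and Cebpb at 79.4 ± 14.2 followed. Their ranges overlapped, although Pparg was above Cebpb in each of the 3 libraries. Nr1h3 at 51.8 ± 2.56 and Rxra at 47.6 ± 4.42 were within their spread of each other. Sp3 was at 20.1 ± 0.591, Ppard at 13.9 ± 1.52, Sp1 at 10.3 ± 0.789, Rxrg at 6.43 ± 0.467 and Ppara, the lowest, at 2.49 ± 0.428. In WT eWAT the order was the same save that Cebpb (55.5 ± 2.17) stood above Pparg (49.9 ± 2.64) and Sp1 (13.4 ± 0.472) above Ppard (8.66 ± 0.852). In WT BAT, Cebpa (281 ± 31.6) and Cebpb (247 ± 87.5) led without differing beyond their spread. Pparg (143 ± 37.8) and Ppara (102 ± 27.4) came next with ranges that overlapped, Pparg being above Ppara in each library. Ppard (10.2 ± 1.79) was lowest. Ppara stood above 95.4% of genes in WT BAT and above 19.05% in WT eWAT. Sp1 was of middling abundance in every group, above 61.6% of genes in WT iWAT, 68.5% in WT eWAT and 66.2% in WT BAT.

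**Figure D1:**
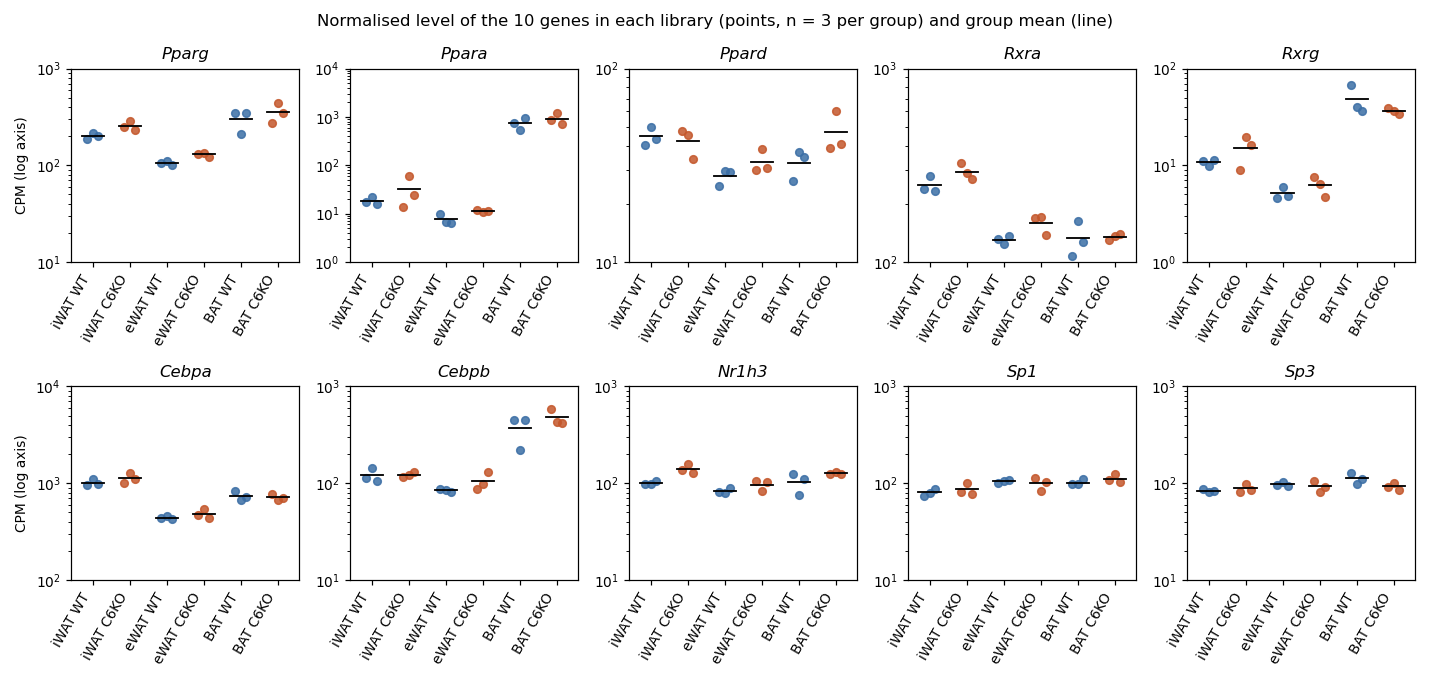
TMM-scaled CPM of each of the 10 genes (log axis) in the 18 libraries, WT in blue and C6KO in orange, with points for the 3 libraries of each group and a line at their mean. Ppara ran from 6.49 CPM in an eWAT library to 1198 CPM in a BAT library, while Sp1 stayed between 74.5 and 125 CPM in all 18.

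Between genotypes, 0 of the 10 genes passed the test in any depot, although most of their estimates were higher in C6KO. In edgeR, fitted over all genes of the depot, a gene was called where the adjusted p was below 0.05 and the level differed at least 1.5-fold. Among all genes tested, 0.0275% were called in iWAT (4 of 14533), 0.746% in eWAT (111 of 14889) and 1.24% in BAT (168 of 13595). Of those called in eWAT 72.1% were higher in C6KO, and 58.2% with total counts as the scaling. DESeq2 also called 0 of the 10 in each depot, where it called 4.57%, 4.02% and 3.7% of all genes. At an unadjusted p below 0.05, edgeR held 1 of the 10 in BAT, 2 in iWAT and 3 in eWAT, beside 13.2%, 16.5% and 17.6% of all genes. The estimate was higher in C6KO for 7 of the 10 in BAT, 9 in iWAT and 8 in eWAT, beside 46.1%, 53.8% and 49.1% of all genes. Their median log2 fold change was 0.19 in BAT, 0.19 in iWAT and 0.27 in eWAT, beside -0.03, 0.03 and -0.01 over all genes. The 3 C6KO libraries were all above the 3 WT libraries for 1 gene in BAT, 2 in iWAT and 4 in eWAT, which holds for 7.44%, 10.9% and 11.6% of all genes.

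Pparg was at 189, 218 and 200.4 CPM in the WT and 246, 284 and 231 in the C6KO libraries of iWAT. In eWAT it was at 107, 111 and 99.5 CPM in WT and 132, 134 and 123 in C6KO. In both white depots every C6KO library was above every WT library, by a narrow margin. The log2 fold change was 0.33 (SE 0.13, adjusted p = 0.26) in iWAT and 0.30 (SE 0.10, adjusted p = 0.15) in eWAT, with 95% intervals of 0.03 to 0.63 and 0.08 to 0.51, and Pparg was not called in either. In BAT it was at 351, 211 and 348 CPM in WT and 271, 444 and 349.7 in C6KO, where the lowest value was that of the WT library rich in muscle markers and the genotypes overlapped. The log2 fold change in BAT was 0.25 (SE 0.24, adjusted p = 0.73), and 0.063 (adjusted p = 0.93) without that library. The adjusted p ranged from 0.54 to 0.97 over all alternatives.

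In the white depots the summed adipocyte markers were higher in C6KO, and the summed macrophage markers lower. The 12 adipocyte markers, which include the lipid droplet coat gene Plin1 and the hormone gene Adipoq, summed to 32792 to 35664 CPM in WT and 43355 to 51796 in C6KO in iWAT, and to 11401 to 13484 and 15920.1 to 20415 in eWAT. The 20 macrophage markers summed to 4400.1 to 5029 CPM in WT and 982 to 3123 in C6KO for iWAT, 15156 to 16556 and 11557 to 13224 for eWAT and 1392 to 1909.8 and 429 to 679 for BAT, with 0 of them absent from any library. In BAT the summed adipocyte markers overlapped, at 20156 to 29971 CPM in WT and 23659 to 27970.0 in C6KO. Single markers there moved both ways, with log2 fold changes from -3.35 to 1.53. Of these 12, 1 was called lower and 0 higher in BAT, where 1.24% of all genes were called. Other cell types moved too: 10 adipocyte progenitor markers summed to 1439 to 1506 CPM in WT and 742 to 1223 in C6KO in iWAT, and to 2886 to 3296 and 2268 to 2686 in eWAT. In eWAT 10 endothelial markers were at 693 to 795 CPM in WT and 991 to 1129 in C6KO, and 10 hepatocyte markers, low throughout, at 10.7 to 16.9 and 31.8 to 90.8. In BAT the endothelial markers were at 1125 to 1483 CPM in WT and 1542 to 1622 in C6KO. The part of these cell types in the values of the 10 genes was not tested, and in whole tissue fewer cells of a type and less RNA per cell cannot be told apart.

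Ppara, the fatty acid oxidation receptor, was at 17.4, 22.1 and 15.97 CPM in WT and 13.96, 60.9 and 23.97 in C6KO in iWAT. C6KO library 2 alone was high, and the other two C6KO libraries lay at or near the WT values. The log2 fold change of 0.84 (SE 0.51, adjusted p = 0.46) was 0.039 without that library (adjusted p = 0.97; range over the alternatives 0.28 to 0.97). In eWAT, at 10.01, 6.64 and 6.49 CPM in WT and 11.98, 10.7 and 11.1 in C6KO, the genotypes did not overlap and the log2 fold change was 0.55 (SE 0.20, adjusted p = 0.19). In BAT it was at 763, 548 and 956 CPM in WT and 877, 1198 and 707 in C6KO, which overlapped, and the log2 fold change was 0.31 (SE 0.26, adjusted p = 0.67). The low WT value was that of the muscle-rich library 2, and the estimate was 0.15 without it and 0.10 without C6KO library 2, the highest.

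Ppard, the broadly expressed PPAR, was at 26.1, 37.03 and 34.8 CPM in WT and 38.99, 60.2 and 40.9 in C6KO in BAT, where it was the gene of the 10 whose genotypes did not overlap. Its log2 fold change there was 0.52 (SE 0.22, adjusted p = 0.36), and 0.65 without WT library 2 (adjusted p = 0.28; range over the alternatives 0.14 to 0.78). Without C6KO library 2, the highest of its group, the estimate was 0.32. In eWAT it was at 24.6, 29.5 and 29.2 CPM in WT and 29.9, 38.2 and 30.7 in C6KO, again without overlap, with a log2 fold change of 0.25 (SE 0.13, adjusted p = 0.38) that was 0.15 without C6KO library 2. In iWAT the estimate was -0.07 (SE 0.16, adjusted p = 0.85), with the libraries of the genotypes interleaved.

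Of the RXR partners, Rxra was at 131, 124 and 136 CPM in WT and 169, 169.8 and 138 in C6KO in eWAT, where the lowest C6KO library was just above the highest WT library. Its log2 fold change was 0.29 (SE 0.11, adjusted p = 0.21) in eWAT, 0.24 (SE 0.14, adjusted p = 0.42) in iWAT and 0.03 (SE 0.19, adjusted p = 0.97) in BAT. Without the muscle-rich WT library, which had the highest Rxra of its group, the estimate in BAT was 0.24 (adjusted p = 0.57; range over the alternatives 0.57 to 0.99). Rxrg, the RXR form enriched in BAT here, was at 11.03, 9.81 and 11.3 CPM in WT and 8.86, 19.8 and 16.2 in C6KO in iWAT and at 67.6, 39.9 and 36.8 and 39.5, 36.8 and 33.5 in BAT. The genotypes overlapped in both. The estimates of Rxrg were 0.49 (SE 0.27, adjusted p = 0.41) for iWAT, 0.28 (SE 0.23, adjusted p = 0.61) for eWAT and -0.37 (SE 0.22, adjusted p = 0.53) for BAT, where WT library 1 was alone high. They were -0.050 in BAT without that library, 0.23 in iWAT without C6KO library 2 and 0.13 in eWAT without C6KO library 1.

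Cebpa differed little between genotypes, with log2 fold changes of 0.15 (SE 0.15, adjusted p = 0.66) for iWAT, 0.14 (SE 0.11, adjusted p = 0.59) for eWAT and -0.03 (SE 0.17, adjusted p = 0.97) for BAT. The 95% intervals of -0.20 to 0.50, -0.11 to 0.40 and -0.40 to 0.35 all lay below a fold change of 1.5 in either direction. Cebpb was at 86.3, 85.6 and 80.3 CPM in WT and 86.2, 97.6 and 130.0 in C6KO in eWAT and at 450.2, 221 and 451 and 585, 429 and 423 in BAT. A single high C6KO library in eWAT and the low, muscle-rich WT library in BAT set the spread. Its estimates were 0.03 (SE 0.14, adjusted p = 0.93) for iWAT, 0.32 (SE 0.15, adjusted p = 0.30) for eWAT and 0.38 (SE 0.27, adjusted p = 0.62) for BAT, the second being 0.13 without C6KO library 3 and the last 0.13 without WT library 2 (adjusted p = 0.81; range over the alternatives 0.43 to 0.87).

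Nr1h3, which encodes LXRα, had the smallest unadjusted p of the 10 genes in iWAT. It was at 97.3, 98.4 and 106 CPM in WT and 136, 159 and 128 in C6KO, so that every C6KO library lay above every WT library. The fold change was 1.404, a log2 fold change of 0.49 (SE 0.12, adjusted p = 0.16). Without C6KO library 3 of iWAT it was 0.54 with an adjusted p of 0.031, under the fold change minimum, and the adjusted p ranged from 0.031 to 0.49 over the alternatives. In eWAT Nr1h3 was at 80.4, 78.3 and 89.2 CPM in WT and 105, 82.3 and 102 in C6KO, with overlap and an estimate of 0.23 (SE 0.12, adjusted p = 0.38). In BAT it was at 125, 75.8 and 109 and 125, 131 and 124, where the low WT value was again that of library 2, and the estimate of 0.31 (SE 0.18, adjusted p = 0.51) became 0.15 without it (adjusted p = 0.72; range over the alternatives 0.32 to 0.81).

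Sp1 was at 74.5, 79.8 and 86.8 CPM in WT and 81.5, 99.3 and 77.3 in C6KO in iWAT. In eWAT it was at 100.3, 106 and 107 CPM in WT and 114, 82.2 and 103 in C6KO. The BAT libraries of WT held 97.7, 97.1 and 109.8 CPM and those of C6KO 107, 125 and 102. The genotypes overlapped in all 3 depots. The log2 fold changes of 0.10 (SE 0.13, adjusted p = 0.73) for iWAT, -0.06 (SE 0.13, adjusted p = 0.86) for eWAT and 0.14 (SE 0.15, adjusted p = 0.74) for BAT had 95% intervals of -0.19 to 0.40, -0.35 to 0.23 and -0.19 to 0.48, all short of a fold change of 1.5 in either direction. Sp3, whose protein binds the same boxes, had estimates of 0.08 (SE 0.11, adjusted p = 0.78) in iWAT and -0.07 (SE 0.12, adjusted p = 0.83) in eWAT, with 95% intervals of -0.18 to 0.34 and -0.35 to 0.21. In BAT Sp3 was at 129, 96.96 and 109.7 CPM in WT and 91.9, 101 and 84.3 in C6KO, with an estimate of -0.26 (SE 0.15, adjusted p = 0.52) and an interval of -0.60 to 0.09 that reaches past a 1.5-fold decrease.

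Pnpla2, the ATGL gene, had larger estimates than any of the 10 genes except Ppara in iWAT, and its genotypes did not overlap in any depot. It was at 2986, 2475 and 2808 CPM in WT and 5204, 4658 and 3798 in C6KO in iWAT and at 934, 804 and 1038 and 1841, 1534 and 1399 in eWAT. In BAT it was at 3321, 2854 and 3315 CPM in WT and 4385, 4896 and 4665 in C6KO. The log2 fold changes were 0.73 (SE 0.18, adjusted p = 0.16) for iWAT, 0.79 (SE 0.15, adjusted p = 0.052) for eWAT and 0.57 (SE 0.17, adjusted p = 0.16) for BAT, and edgeR called Pnpla2 in none of the 3. DESeq2 called it in all 3, at adjusted p = 0.0018, 1.6e-05 and 0.0028, and edgeR called it in iWAT without C6KO library 3 (log2 fold change 0.83, adjusted p = 0.014). Pnpla2 is also 1 of the 12 adipocyte markers whose sum is given above for the white depots.

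**Figure D2:**
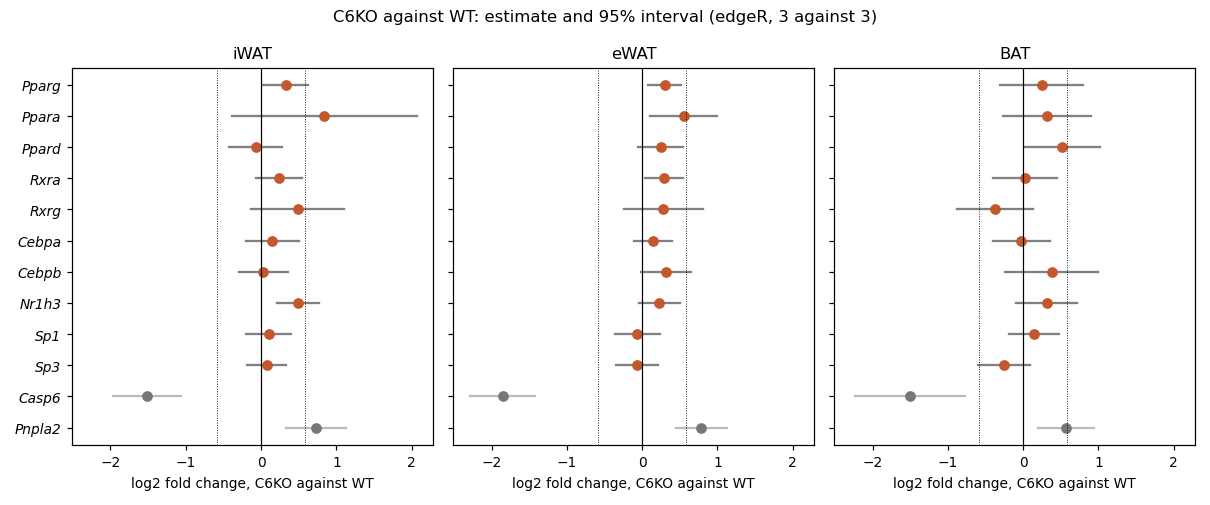
Log2 fold change of C6KO against WT (x axis) for the 10 genes in orange and for Casp6 and Pnpla2 in grey, by depot; points are edgeR estimates, bars 95% intervals (3 libraries against 3), and dotted lines a fold change of 1.5. The estimates of the 10 genes ran from -0.37 (Rxrg in BAT) to 0.84 (Ppara in iWAT), and those of Sp1 and Cebpa stayed within 0.15 of 0.

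More of the 10 genes were called between depots than between genotypes, as was also true of all genes. Of all genes tested, 0.0275% to 1.24% were called between genotypes and 24.6% to 50.1% between depots. In eWAT against iWAT of WT mice, 6 of the 10 genes were called, all lower in eWAT, beside 25.7% of all genes called and 12.9% called lower. In C6KO mice it was 5 of 10, all lower, beside 24.6% and 10.5%. These contrasts come from 1 edgeR fit of all 18 libraries over 15866 genes. Scaling by total counts alone moved the median log2 fold change over all genes from 0.01 to 0.15 in eWAT against iWAT, from 0.01 to -0.13 in BAT against iWAT and from 0.03 to -0.26 in BAT against eWAT in WT, and from -0.05 to 0.11, -0.04 to -0.13 and -0.01 to -0.26 in C6KO. With it, the share of higher genes among those called in WT went from 49.9% to 63.6%, from 51.8% to 41.2% and from 51.4% to 36.7%, and in C6KO from 57.2% to 71.6% in eWAT against iWAT and from 47.1% to 35.1% in BAT against eWAT, so small differences between depots rest on the scaling.

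Pparg was 1.92-fold lower in eWAT than in iWAT of WT mice, at 106 ± 5.59 against 202 ± 14.6 CPM (SD, n = 3), a log2 fold change of -0.94 (SE 0.19, adjusted p = 0.0011), and it was also called lower in C6KO (-0.97, SE 0.19, adjusted p = 8.1e-04). Cebpa fell by 1.21 on the log2 scale in WT and 1.22 in C6KO (adjusted p = 1.4e-05 and 7.0e-06), and no eWAT library reached an iWAT library. Rxra had log2 fold changes of -0.94 (SE 0.14, adjusted p = 1.5e-04) in WT and -0.88 (SE 0.14, adjusted p = 1.8e-04) in C6KO, and Rxrg of -1.06 (SE 0.27, adjusted p = 0.0069) and -1.27 (SE 0.27, adjusted p = 0.0018). Ppara was called lower in eWAT in both genotypes (-1.26, SE 0.41, adjusted p = 0.029 in WT and -1.55 (SE 0.41, adjusted p = 0.0091) in C6KO), with the difference in counted exon already described, and the call in C6KO was lost without iWAT library 2 (-0.75, adjusted p = 0.064). In WT it was lost without library 1 or 2 of iWAT or library 2 or 3 of eWAT, at adjusted p from 0.055 to 0.099. Ppard was called lower in WT (-0.68, SE 0.18, adjusted p = 0.009) and had an estimate of -0.36 (SE 0.18, adjusted p = 0.15) in C6KO. With total counts as the scaling the WT value was -0.54, under the fold minimum.

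Cebpb, Nr1h3, Sp1 and Sp3 were not called between the white depots. Cebpb had an estimate of -0.52 (SE 0.23, adjusted p = 0.094) in WT, and Nr1h3 of -0.29 (SE 0.15, adjusted p = 0.17) in WT and -0.55 (SE 0.15, adjusted p = 0.012) in C6KO. Sp1 had higher estimates in eWAT, at 0.38 (SE 0.13, adjusted p = 0.038) in WT and 0.21 (SE 0.13, adjusted p = 0.24) in C6KO, both under the fold minimum. Macrophage markers were at 15156 to 16556 CPM in eWAT and 4400.1 to 5029 in iWAT of WT mice, and adipocyte markers at 11401 to 13484 and 32792 to 35664. Their part in these depot differences was not tested.

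BAT was set apart by Ppara, Rxrg and Cebpb. Against iWAT, 3 genes were called higher and 1 lower in WT, beside 38.7% of all genes called, 20.1% higher and 18.7% lower. In C6KO 3 were called higher and 2 lower, beside 38.2%, 18% and 20.2%. Ppara was at 756 ± 204 CPM in BAT against 18.5 ± 3.18 in iWAT of WT mice, a fold change of 40.9 and a log2 fold change of 5.35 (SE 0.47, adjusted p = 3.6e-07), with 4.81 (SE 0.45, adjusted p = 6.1e-07) in C6KO, both on the same transcript. Rxrg was 4.48-fold higher in WT (2.16, SE 0.27, adjusted p = 6.9e-06) and 2.45-fold higher in C6KO (1.29, SE 0.26, adjusted p = 7.2e-04). Cebpb was 3.11-fold higher in WT (1.64, SE 0.23, adjusted p = 2.7e-05) and 3.91-fold higher in C6KO (1.97, SE 0.24, adjusted p = 3.5e-06). Every BAT library lay above every iWAT library for these 3 genes.

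Rxra was called lower in BAT than in iWAT, at -0.92 (SE 0.14, adjusted p = 6.8e-05) in WT and -1.12 (SE 0.14, adjusted p = 7.7e-06) in C6KO, so that the RXR forms moved in opposite directions. Cebpa was -0.45 (SE 0.13, adjusted p = 0.011) in WT, under the fold minimum, and was called lower in C6KO at -0.64 (SE 0.13, adjusted p = 9.4e-04), which without iWAT C6KO library 2 was -0.54 and again under the minimum. Pparg was just under the minimum in WT (0.58, SE 0.19, adjusted p = 0.016), with BAT library 2 low among the WT libraries. Without that library its log2 fold change was 0.79 (adjusted p = 7.7e-04; range over the alternatives 7.7e-04 to 0.074) and it was called. The counts of called genes among the 10 were 5 and 5 without BAT library 2, against iWAT and against eWAT, beside 4 and 5 with it. Sp1 and Sp3 were 0.34 (SE 0.13, adjusted p = 0.046) and 0.42 (SE 0.13, adjusted p = 0.014) in WT, again under the minimum.

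Against eWAT, 5 of the 10 genes were called in BAT of WT mice, all higher, beside 48.6% of all genes called and 25% called higher, and 4 in C6KO, all higher, beside 50.1% and 23.6%. Ppara differed most, at 6.61 (SE 0.50, adjusted p = 3.3e-08) in WT and 6.36 (SE 0.49, adjusted p = 3.5e-08) in C6KO, then Rxrg at 3.23 (SE 0.29, adjusted p = 6.5e-08) and 2.56 (SE 0.28, adjusted p = 5.9e-07), Cebpb at 2.15 (SE 0.24, adjusted p = 8.1e-07) and 2.196 (SE 0.24, adjusted p = 5.6e-07), and Pparg at 1.52 (SE 0.19, adjusted p = 3.1e-06) and 1.46 (SE 0.19, adjusted p = 4.3e-06). Cebpa was called in WT (0.76, SE 0.14, adjusted p = 1.4e-04) and was just below the fold minimum in C6KO (0.58, SE 0.13, adjusted p = 0.0014), with a difference between the genotypes of -0.18 (95% interval -0.58 to 0.22). Under total-count scaling the WT value was 0.47, also below the minimum. Rxra, which differed between iWAT and either other depot, was at 0.02 (SE 0.14, adjusted p = 0.89) between BAT and eWAT in WT and at -0.26 with total counts as the scaling. Sp1 was at -0.04 (SE 0.13, adjusted p = 0.81) in WT and 0.15 (SE 0.13, adjusted p = 0.33) in C6KO.

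**Figure D3:**
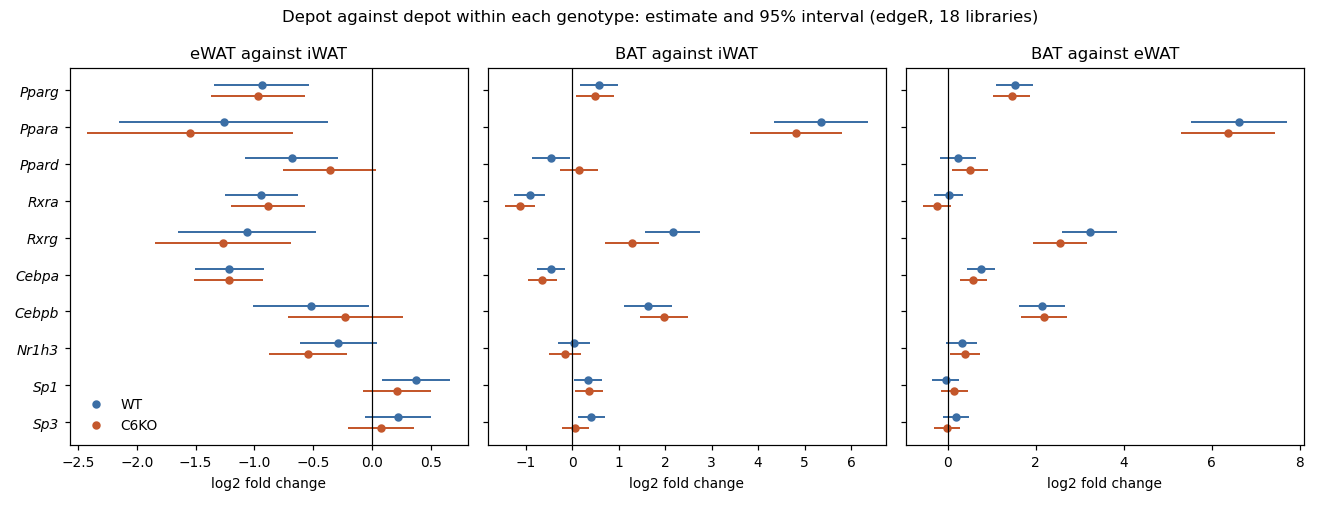
Log2 fold change between depots (x axis, each panel with its own range) for the 10 genes in WT (blue) and C6KO (orange), from 1 edgeR fit of 18 libraries; points are estimates and bars 95% intervals. Ppara reached 6.61 in BAT against eWAT, Cebpa -1.21 in eWAT against iWAT, and Sp1 stayed between -0.04 and 0.38 in all 6 comparisons.

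Whether the C6KO effect itself differed between depots was tested as an interaction, and 0 of the 10 genes were called in any of the 3 pairs of depots in edgeR or in DESeq2. Among all genes 0% were called for eWAT against iWAT, 0.183% for BAT against iWAT and 0.536% for BAT against eWAT. At an unadjusted p below 0.05 there were 0, 2 and 0 of the 10 genes, beside 5.48%, 9.93% and 11.2% of all genes. The 2 were Rxrg, whose C6KO effect in BAT, relative to iWAT, fell by 0.87 on the log2 scale (adjusted p = 0.44), and Ppard, whose effect was higher in BAT by 0.59 (adjusted p = 0.46). For Pparg the differences of the effect were -0.03, -0.10 and -0.06 with 95% intervals of -0.58 to 0.52, -0.65 to 0.46 and -0.62 to 0.49. For Sp1 they were -0.16, 0.03 and 0.20, with intervals of -0.56 to 0.23, -0.37 to 0.43 and -0.20 to 0.59.

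Ratios within a library compare the genes of a family per kilobase without the scaling between libraries. The ratio of Ppara to Pparg was 0.0227 to 0.0289 in WT iWAT, 0.0177 to 0.0276 in WT eWAT and 0.619 to 0.783 in WT BAT, and 0.0162 to 0.0612, 0.0235 to 0.0267 and 0.575 to 0.921 in C6KO. Per kilobase, Pparg was the leading PPAR mRNA in every library, and Ppara came near it in BAT alone. This order in BAT rests on the length of 7435 bases used for Ppara, where GENCODE gives that transcript 3413 exon bases. In mean CPM, not divided by length, Ppara was above Pparg in BAT, at 756 against 303 in WT and 927 against 355 in C6KO. The ratio of Ppard to Pparg was 0.141 to 0.152 in WT and 0.0971 to 0.127 in C6KO for iWAT, 0.152 to 0.194 and 0.149 to 0.189 for eWAT and 0.0491 to 0.116 and 0.0773 to 0.0949 for BAT. The iWAT values were the only ones of the 3 that did not overlap. The ratio of Rxrg to Rxra was 0.112 to 0.152 in WT iWAT and 0.109 to 0.152 in WT eWAT, but 0.773 to 1.99 in WT BAT and 0.763 to 0.960 in C6KO BAT. In BAT the RXR forms were of the same order, and in white fat Rxra prevailed. The ratio of Cebpb to Cebpa went from 0.186 to 0.225 in WT iWAT to 0.327 to 0.346 in WT eWAT and 0.576 to 1.08 in WT BAT. The ratio of Sp3 to Sp1 stayed between 1.52 and 2.47 in all 18 libraries, and in BAT the C6KO libraries (1.52 to 1.61) were below the WT libraries (1.87 to 2.47). These ratios are descriptions and were not tested, and how often ratios of other genes separate the genotypes was not counted.

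**Figure D4:**
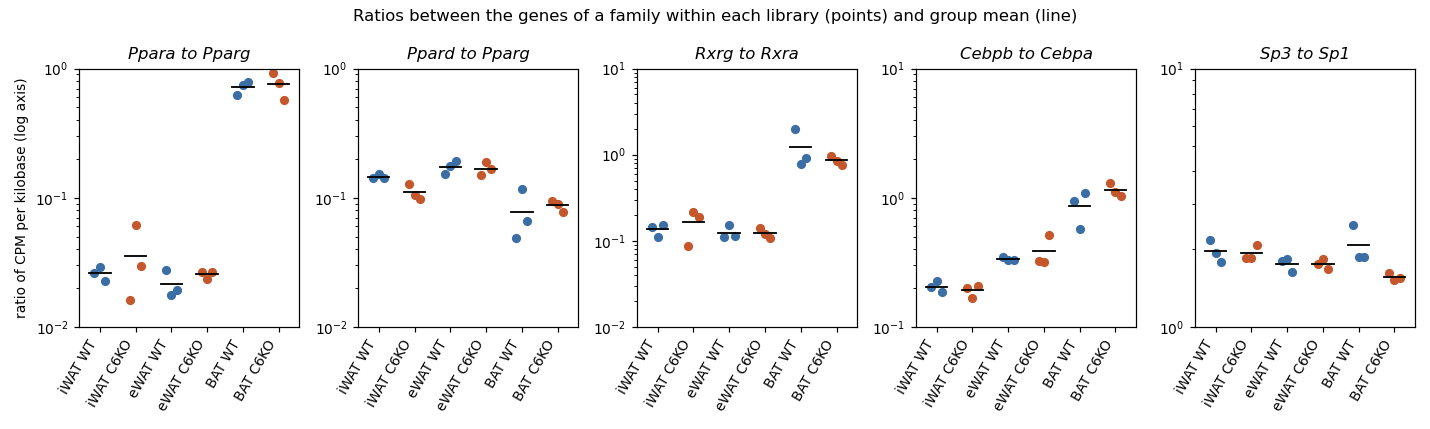
Ratio of CPM per kilobase between 2 genes of a family in each library (log axes, each panel with its own range), WT in blue and C6KO in orange, with points for the 3 libraries of each group and a line at their mean. Ppara to Pparg, Rxrg to Rxra and Cebpb to Cebpa were highest in BAT, while Sp3 to Sp1 lay between 1.52 and 2.47 throughout.

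The genes whose levels followed Pparg and Sp1 most closely were ranked by Pearson's r of log2 CPM over the 18 libraries, after the mean of its depot had been taken from each library, among 15865 other genes. For Pparg these were Ociad1 (r = 0.87), Iars2 (0.87), Nadk (0.86), Pccb (0.85) and Pde3b (0.84), where Pde3b encodes a phosphodiesterase of insulin's antilipolytic action in adipocytes, Pccb a subunit of mitochondrial propionyl-CoA carboxylase, Iars2 the mitochondrial isoleucyl-tRNA synthetase and Nadk an NAD kinase. Nr1h3 was the nearest of the other 9 genes, with r = 0.76 (rank 66), then Ppara with 0.65 (rank 432), while Rxra had 0.11 and Sp1 0.39. For Sp1 the nearest were Fndc3a (r = 0.92), Pfas (0.90), Tug1 (0.89), Man2a1 (0.88) and Nup98 (0.88), and among the 10 genes Nr1h3 (0.53) and Ppara (0.48) came before Sp3 (0.40). The 18 points share depth, scaling and the genotype difference, so these values describe likeness only.

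Around these factors, 5 lists of related genes were counted: relatives of the RXR, LXR, C/EBP and Sp/KLF families, coactivators and corepressors of PPAR and RXR, PPAR target genes of fat, LXR target genes, and other adipogenic transcription factors. The PPAR targets had the highest median of the 5 lists in each depot, although few of them were called. Of 50 tested in each depot, 1 was called higher in BAT, 1 in iWAT and 4 in eWAT, and 0 were called lower. At an unadjusted p below 0.05, 18 were higher and 0 lower for iWAT, 30 and 0 for eWAT and 7 and 3 for BAT, where 16.5%, 17.6% and 13.2% of all genes passed in either direction. DESeq2 called 8, 15 and 4 higher, beside 4.57%, 4.02% and 3.7% of all genes, and the called counts stand beside 0.0275%, 0.746% and 1.24% in edgeR. These shares are also those to set beside the counts of the other 4 lists. The median log2 fold change of the list was 0.22 for iWAT, 0.55 for eWAT and 0.13 for BAT, beside 0.03, -0.01 and -0.03 over all genes. Of its 51 genes, 8 are also among the 12 adipocyte markers, whose sums moved with genotype in the white depots. Those markers had medians of 0.45 for iWAT, 0.61 for eWAT and 0.12 for BAT, above the PPAR targets in both white depots. Of the endothelial and hepatocyte markers, which were also higher in eWAT of C6KO, 1 and 3 were called there. The part of these cell types in the list's values was not tested. Gyk was not found under that symbol.

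In iWAT the called target was Plin5, which encodes a lipid droplet protein of oxidative tissues, at 18.4, 25.8 and 25.8 CPM in WT and 79.9, 103 and 76.6 in C6KO. Its log2 fold change was 1.895 (SE 0.18, adjusted p = 0.0082), and the call was lost without any single WT library. Ehhadh, of peroxisomal fatty acid oxidation, had an estimate of 1.34 (SE 0.22, adjusted p = 0.12) and was not called, but without C6KO library 3 of iWAT the number of targets called higher was 10. In eWAT Ehhadh was called, at 17.1, 18.5 and 21.4 CPM in WT and 51.7, 34.7 and 37.4 in C6KO (1.12, SE 0.17, adjusted p = 0.042). Gpihbp1, which anchors lipoprotein lipase to capillaries, was called as well (0.92, SE 0.09, adjusted p = 0.013), together with the lipase gene Lipe (0.72, SE 0.12, adjusted p = 0.043) and Plin1 (0.62, SE 0.11, adjusted p = 0.047). These 4 calls were lost without any single WT library of eWAT, those of Ehhadh, Lipe and Plin1 also without C6KO library 1 or 3, and a count of 0 to 13 targets was called over the leave-one-out fits there. The targets with the largest estimates in eWAT were Ucp1 (2.06, SE 1.06, adjusted p = 0.38), Fgf21 (1.79, SE 0.37, adjusted p = 0.057) and Plin5 (1.56, SE 0.45, adjusted p = 0.15). The estimate of Ucp1 was 0.15 without C6KO library 1. Ucp1 and Fgf21 were low in eWAT. Ucp1 was at 0.49, 0.93 and 0.16 CPM in WT and 5.53, 0.44 and 0.73 in C6KO. Fgf21 was at 0.65, 0.89 and 0.53 CPM in WT and 2.71, 2.25 and 2.24 in C6KO. In BAT, Ehhadh was called, at 189, 197 and 228 CPM in WT and 674, 577 and 375 in C6KO (1.42, SE 0.24, adjusted p = 0.028), and the call held without WT library 2 (1.42, adjusted p = 0.035) but not without WT library 1 or 3 or C6KO library 1 or 2, at adjusted p from 0.061 to 0.12. The thioesterase gene Acot1 (1.5999, SE 0.52, adjusted p = 0.27) and the hormone gene Fgf21 (-1.33, SE 0.54, adjusted p = 0.34) were not called.

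No relative of the RXR, LXR, C/EBP or Sp/KLF families was called of 20, 19 and 18 tested in iWAT, eWAT and BAT, in edgeR or DESeq2. The list had medians of 0.03, 0.03 and 0.02. At an unadjusted p below 0.05, 1 was higher for iWAT, 0 passed for eWAT and 1 was higher and 1 lower for BAT. Klf15, a factor of adipocyte differentiation and amino acid metabolism, was among the 3 with the largest estimates in each depot, at 0.82 (SE 0.51, adjusted p = 0.47), 0.37 (SE 0.32, adjusted p = 0.63) and 0.49 (SE 0.28, adjusted p = 0.50). Without C6KO library 2 of the depot these estimates were 0.017 for iWAT, 0.18 for eWAT and 0.16 for BAT. Klf5 was at -0.81 (SE 0.52, adjusted p = 0.47) in iWAT and -0.77 (SE 0.66, adjusted p = 0.62) in eWAT, at means under 1 CPM, the latter being -0.35 without C6KO library 1. Cebpd, which acts with C/EBPβ early in adipogenesis, was at -0.36 (SE 0.23, adjusted p = 0.46) in iWAT and -0.49 (SE 0.26, adjusted p = 0.46) in BAT, and at -0.080 and -0.31 without WT library 2 of each. Sp4 in eWAT (-0.23, SE 0.18, adjusted p = 0.58, and -0.11 without WT library 2) and Klf13 in BAT (0.56, SE 0.34, adjusted p = 0.56, and 0.32 without WT library 1) complete the named genes of this list.

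Of the 25 coactivators and corepressors, edgeR called 0 in each depot, and DESeq2 called 1 in iWAT and 0 in eWAT and BAT. At an unadjusted p below 0.05, 3 were higher for iWAT, 2 higher and 1 lower for eWAT and 1 lower for BAT. The corepressor gene Ncor1 was at 300.2, 304 and 302 CPM in WT and 608, 488 and 341 in C6KO in iWAT, with a log2 fold change of 0.67 (SE 0.20, adjusted p = 0.19), and it was called in DESeq2 (adjusted p = 0.036) and in edgeR without C6KO library 3 (adjusted p = 0.0083). In eWAT Ncor1 was at 0.33 (SE 0.16, adjusted p = 0.33) and at 0.16 without C6KO library 1, the adipogenic coregulator gene Tle3 at 0.39 (SE 0.10, adjusted p = 0.082) and Ncoa7 at -0.32 (SE 0.12, adjusted p = 0.19). Cited2 (0.51, SE 0.29, adjusted p = 0.42) and Nrip1 (0.48, SE 0.30, adjusted p = 0.47) were the next in iWAT, and were 0.14 without C6KO library 1 and 0.18 without C6KO library 2. In BAT the largest were Ncoa7 (-0.49, SE 0.18, adjusted p = 0.28), Cited2 (-0.45, SE 0.27, adjusted p = 0.52) and Tle3 (0.39, SE 0.34, adjusted p = 0.69). Cited2 was at -0.050 without the muscle-rich WT library 2 and Tle3 at 0.17 without C6KO library 2.

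Of the LXR targets, edgeR called 0 of 19 for iWAT, 19 for eWAT and 17 for BAT. At an unadjusted p below 0.05, 2 were higher and 3 lower in iWAT, and 2 and 2 in each of the other depots. The list includes Nr1h3 itself, which was 1 of the 2 higher in iWAT, so the list is not independent of the 10 genes. DESeq2 called 2 lower in iWAT (Arl4c and Abcb4) and 1 higher in BAT (Mlxipl). In iWAT, where Nr1h3 itself had its highest estimate, the largest were Scd2 (-1.41, SE 0.61, adjusted p = 0.32), Arl4c (-1.19, SE 0.30, adjusted p = 0.16) and Abcb4 (-0.96, SE 0.26, adjusted p = 0.17), all with lower estimates in C6KO, and without C6KO library 3 of iWAT the estimate of Scd2 was -2.47 and 5 targets were called lower. The list median was -0.01 for iWAT, 0.04 for eWAT and 0.10 for BAT. In eWAT the largest were Scd1 (0.59, SE 0.25, adjusted p = 0.27), Mlxipl (0.54, SE 0.12, adjusted p = 0.065) and Arl4c (-0.47, SE 0.28, adjusted p = 0.46). Without C6KO library 1 these were 0.29 for Scd1 and -0.19 for Arl4c. In BAT the largest were Fasn (1.305, SE 0.71, adjusted p = 0.52), Arl4c (-1.19, SE 0.49, adjusted p = 0.34) and Apoc1 (1.05, SE 0.43, adjusted p = 0.36). Fasn was at 1769, 1454 and 2961 CPM in WT and 6628, 7177 and 1264 in C6KO, whose library 3 lay below every WT library. Without the muscle-rich WT library 2, Arl4c was at -0.36 and Apoc1 at 0.73. Fasn and Scd1 encode enzymes of fatty acid synthesis and desaturation, and Mlxipl the carbohydrate-response factor ChREBP.

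Among the other adipogenic factors, 1 of 39 was called in eWAT and 0 of 40 in iWAT and 39 in BAT, where DESeq2 called 2 (Zbtb16 and Zfp423), 0 and 3 (Irf4, Mlxipl and Nfia, the last named after its values were seen), all higher. At an unadjusted p below 0.05, 4 were higher and 3 lower for iWAT, 10 and 1 for eWAT and 3 and 1 for BAT. The called gene was Zbtb16, which encodes the zinc-finger factor PLZF, at 79.5, 75.2 and 69.2 CPM in WT and 100.4, 157 and 134 in C6KO (log2 fold change 0.81, adjusted p = 0.0495), a call at the threshold that was lost with all 18 libraries in the fit and without any single WT library or C6KO library 3 of eWAT. Zfp423, of preadipocyte commitment, was at 0.66 (SE 0.13, adjusted p = 0.053) in eWAT, and the estrogen-related receptor gene Esrrg at 0.84 (SE 0.28, adjusted p = 0.16) in eWAT and -1.32 (SE 0.44, adjusted p = 0.21) in iWAT. Without C6KO library 3 of iWAT, Esrrg was at -1.83 there (adjusted p = 0.030) and was called. In iWAT Rarb (-0.85, SE 0.29, adjusted p = 0.21) and Nr4a1 (-0.65, SE 0.34, adjusted p = 0.38) had lower estimates, that of Nr4a1 being -0.13 without WT library 1. In BAT Irf4 (1.61, SE 0.57, adjusted p = 0.30), Zbtb16 (1.09, SE 0.85, adjusted p = 0.67) and Mlxipl (0.93, SE 0.25, adjusted p = 0.12) had higher ones, and without C6KO library 3 Irf4 was at 0.97 and Zbtb16 at 0.28. The list medians were 0.12, 0.09 and 0.06.

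**Figure D5:**
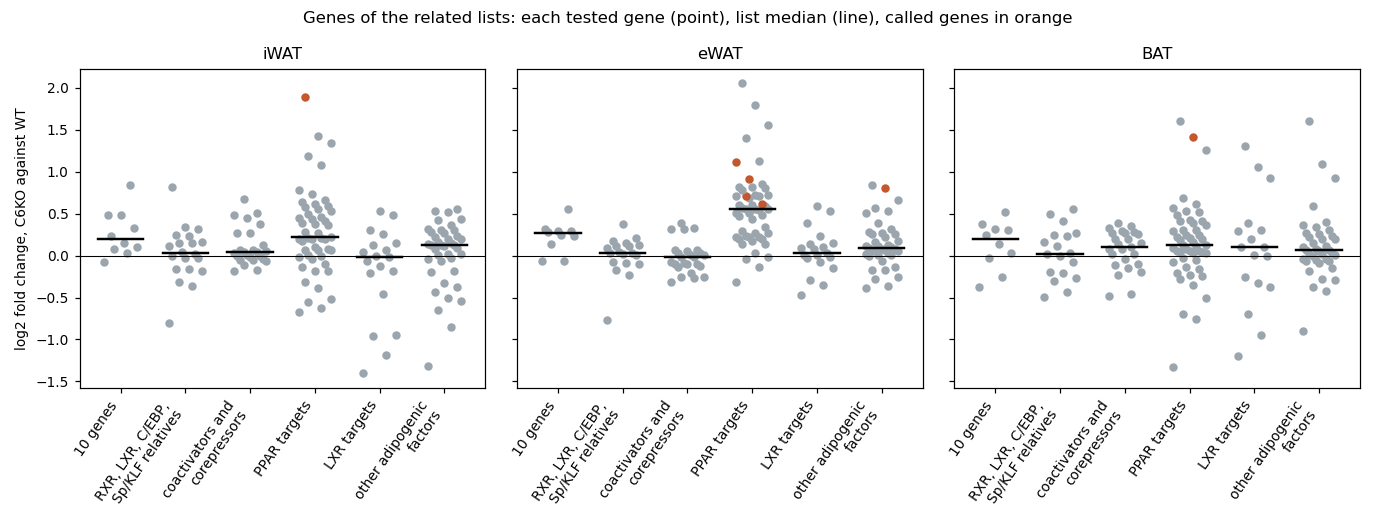
Log2 fold change of C6KO against WT (y axis) for each tested gene of the 10 factors and the 5 lists of related genes, by depot; points are genes, black lines list medians and orange points called genes. The PPAR targets had a median of 0.55 in eWAT, the highest of the 5 lists in any depot, and 1, 4 and 1 of them were called in iWAT, eWAT and BAT.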

How the data were processed

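Poly(A) RNA of 18 libraries was sequenced, and per the study's methods the authors aligned reads with STAR to mm10 and counted them on exons with HOMER, 1 transcript per gene. The deposited values are raw read counts, 1 table per depot with 25124 genes, and for 2619 genes the tables kept different transcripts. Tool versions, annotation and strandedness are not given in the sources used here. Total counts were 7803108 to 19139694 per library, with 3 libraries per group. The parts of counting error and of the spread between libraries in the precision were not tested.

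Counts were filtered with filterByExpr, scaled by TMM and tested with edgeR 4.0.16 (quasi-likelihood test, robust, two-sided, limma 3.58.1, R 4.3.3) and Benjamini-Hochberg adjustment over all genes tested. C6KO was compared with WT within each depot (3 against 3 libraries), and depots and the depot difference of the genotype effect were tested in 1 fit of all libraries. Calls needed an adjusted p under 0.05 together with a difference of at least 1.5-fold, the thresholds of the study, which used DESeq2. DESeq2 1.42.0 was an alternative here, with the others given in the closing section. Library sizes were the sums over all genes. CPM uses effective library sizes, and levels of different genes were compared per kilobase of the counted transcript. Scripts were tested on simulated data with known changes.

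The 10 genes and the lists of related and marker genes were chosen with earlier results of these data known. Genes named beside them are Casp6, Pnpla2, the called genes and the 3 largest log2 fold changes of each list and depot, and the 5 genes most correlated with Pparg and with Sp1 (log2 CPM, prior count 1). A gene that this rule picks is not reported here. Promoters are from RefSeq on GRCm38.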

Additional observations from a re-analysis of the deposited data

How the results depend on the processing

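Among the 10 genes, 0 were called between genotypes, or in the tests of the depot difference of the genotype effect, under every alternative tried: DESeq2, edgeR with the size factors of DESeq2, scaling by total counts alone, testing without the low-count filter, no fold change minimum, the replicate block, other samples in the fit and each library left out in turn. The number called between depots stayed within 1.5 times the reported number except without the fold change minimum, where it was 8 rather than 4 in BAT against iWAT of WT and 7 rather than 4 in BAT against eWAT of C6KO. Leaving out 1 library gave 5 to 6 genes in eWAT against iWAT, 4 to 5 in BAT against iWAT and 5 each time in BAT against eWAT of WT, and 4 to 6 in each of the same comparisons of C6KO. Genes called over the whole tables moved more: in iWAT from 4 to 666 with DESeq2, 32 without the filter, 366 with all 18 libraries in the fit and 3 (without WT library 1) to 1278 (without C6KO library 3) with a library left out; in eWAT from 111 to 619, 321, 4 and 2 (without WT library 1) to 347 (without C6KO library 2), and 67 with total counts; in BAT from 168 to 547, 237, 525 and 28 (without C6KO library 3) to 178.

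No called value changed sign under any setting. The estimates that did were mostly near 0, the farthest being the differences of the genotype effect on Ppara between depots, which were -0.29 for eWAT and -0.54 for BAT against iWAT and were positive without C6KO library 2 of iWAT. With total counts the log2 fold change was -0.032 for Cebpb between genotypes in iWAT, -0.12 for Nr1h3 in BAT against iWAT of WT, -0.047, -0.26 and -0.10 for Ppard, Rxra and Sp3 in BAT against eWAT of WT, -0.024 for Sp3 in BAT against iWAT and -0.10 for Sp1 in BAT against eWAT of C6KO, and 0.00762 for the difference of the genotype effect on Cebpa between eWAT and iWAT. That difference was 0.00283 without the filter and 0.023 with other samples in the fit. Rxra in BAT against eWAT of WT was -0.00939 with DESeq2 and -0.011 with its size factors, and Cebpa between genotypes in BAT was 0.00182 without the filter. With 1 library left out the sign changed, between genotypes, for Ppard -0.17 to 0.043, Cebpb -0.061 to 0.18, Sp1 -0.012 to 0.16 and Sp3 -0.00572 to 0.14 for iWAT, Sp1 -0.16 to 0.076 and Sp3 -0.17 to 0.041 for eWAT and Rxra -0.089 to 0.24 and Cebpa -0.068 to 0.068 for BAT. Between depots it changed for Nr1h3 -0.13 to 0.22 in BAT against iWAT and Rxra -0.15 to 0.15 in BAT against eWAT of WT, and in C6KO for Sp3 -0.032 to 0.17 in eWAT against iWAT, Ppard -0.081 to 0.26 and Sp3 -0.00159 to 0.15 in BAT against iWAT and Sp3 -0.10 to 0.10 in BAT against eWAT. For the difference of the genotype effect the ranges were Pparg -0.093 to 0.059, Ppara -0.65 to 0.51, Rxra -0.015 to 0.15, Rxrg -0.47 to 0.055 and Cebpa -0.094 to 0.094 for eWAT against iWAT, Pparg -0.30 to 0.066, Ppara -0.90 to 0.26 and Sp1 -0.059 to 0.15 for BAT against iWAT and Pparg -0.27 to 0.096, Cebpb -0.23 to 0.23 and Nr1h3 -0.11 to 0.23 for BAT against eWAT. With total counts, Ppard in eWAT against iWAT of WT (-0.54) and Cebpa in BAT against eWAT of WT (0.47) were under the fold minimum, and Ppard (-0.59) and Cebpa (-0.60) in BAT against iWAT of WT reached it. Single libraries also moved estimates near the fold minimum past it: Nr1h3 in eWAT against iWAT of C6KO was called without C6KO library 3 of iWAT (-0.61) or library 1 or 3 of eWAT (-0.61 and -0.59), Pparg in BAT against iWAT of WT without WT library 2 of iWAT (0.63) and of C6KO without C6KO library 1 of BAT (0.65). In BAT against eWAT of C6KO, Ppard was called without C6KO library 2 of eWAT (0.62) or library 1 or 3 of BAT (0.62 and 0.59), and Cebpa without C6KO library 2 of eWAT (0.67) or library 2 or 3 of BAT (0.63 and 0.59). The cause of these changes was not tested.

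The replicate numbers were shared across groups, and nothing in the labels says that a number marks an animal or a batch. Of 27 same-numbered pairs, 4 correlated above 0.1, where pairing was taken to need every pair above it, and the mean correlation of same-numbered WT and C6KO libraries was 0.046 for iWAT, 0.066 for eWAT and -0.26 for BAT. Of 54 library comparisons, each over 3 numbers, 28 were highest with the library's own number. This held for 6 of 6 libraries between iWAT and BAT in both genotypes, where the correlations were 0.019 to 0.073, and for 0 of 6 between WT and C6KO of BAT, and it is a hint from the data rather than the design. With the replicate number as a block, 62, 414 and 113 genes were called between genotypes in iWAT, eWAT and BAT, against 4, 111 and 168 without it, and 1, 15 and 0 of the PPAR targets. Among the 10 genes the block added Cebpa in BAT against eWAT of C6KO (log2 fold change 0.59, adjusted p = 0.0031), 5 genes rather than 4, and changed no other count of called genes. The spread between libraries, as edgeR's coefficient of variation, came to 0.32 for BAT, 0.22 for iWAT and 0.19 for eWAT, so that the shallower BAT libraries also had the widest spread, and differences between genotypes in BAT were the least precise. Within the BAT groups, pairs with the muscle-rich WT library 2 had r of log2 CPM of 0.899 and 0.938, and the other pairs 0.961 to 0.968. The parts of depth and of that library in the spread were not tested.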
